A study of Mus musculus with 12 samples.

Results

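The serpins are a family of protease inhibitors, and their genes were taken as every row of the deposited tables whose symbol starts with Serpin, leaving out 5 symbols marked as pseudogenes by -ps. This gave 64 of 52670 symbols, of which 28 belong to the Serpinb clade and 36 to the other clades. Enough counts for a test were found for 32 members, 19 of the Serpinb clade and 13 others. Of the 32 untested members, 14 had no count in any library, 4 of them Serpinb genes, and no untested member exceeded 1.67 CPM (counts-per-million) in a library. The tested members are thus those with enough counts to pass the filter, and they include genes that passed through 1 bin alone. Other untested members had some counts.

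RNA came from the epithelium of the circumvallate papilla, which carries taste buds at the rear of the mouse tongue. The animals were adults of 11 to 12 weeks, all of genotype Sox2GFP, in which green fluorescent protein (GFP) reports on Sox2, a transcription factor of taste progenitors. Cells were sorted into 4 bins of rising brightness, Low, MedLow, HiMed and High, and cells without GFP were discarded, so every group compared carries the reporter and has GFP. Each bin has 3 libraries, and each replicate pooled 7 to 13 mice. How the reporter allele was built is not given in the sources used here. Library totals ran from 25.7 M to 55.6 M counts. Sox2 itself rose from 70.3 ± 6.17 CPM in Low to 373 ± 12.8 in High, and all values with ± are a mean and SD over n = 3 libraries. The basal keratinocyte markers summed to between 33691 and 34225 CPM in Low and between 5346 and 8187 in High. General taste bud markers summed to between 543 and 755 in Low and between 2565 and 4605 in High. Markers of single taste cell types did not all rise. Type I markers summed to 63.0 to 74.0 CPM in Low, 12.6 to 18.7 in HiMed and 204 to 367 in High. Of these, Slc1a3 fell from 54.1, 48.5 and 46.6 CPM in Low to 0, 0.218 and 0 in High. Entpd2 made up 183, 155 and 277 CPM of the sum in High, and Kcnj1 and Oxtr were also higher there than in Low. Type II markers summed to 846 to 1024 CPM in Low and 419 to 497 in High. Type III markers summed to 166 to 267 CPM in Low and 99.4 to 221 in High. Among them Otop1 rose from 5.98, 5.12 and 10.7 CPM in Low to 116, 75.4 and 173 in High, and all the others were lower in High. In bulk RNA, fewer cells of a type and less RNA per cell cannot be told apart.

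A serpin works as bait. The target protease cleaves an exposed loop of the serpin, the serpin then snaps into another shape, and the protease is trapped in a dead complex. Serpinb proteins mostly lack a secretion signal and act inside the cell, and many are typical of stratified epithelia, where they meet cathepsins and other proteases of the lysosome or of incoming leukocytes. Most of the other clades are secreted and act outside cells, on elastase, thrombin or the plasminogen activators.

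Set side by side, the clades differed in their tallies. Between High and Low, 15 of 19 Serpinb genes were called, 3 higher and 12 lower in High, against 5 of 13 other serpins, 3 higher and 2 lower. Among all 17432 genes tested, 41.4% were called in this comparison, 20.1% higher and 21.2% lower. A call is an adjusted p under 0.05, and every adjusted p comes from the quasi-likelihood test of edgeR, adjusted by Benjamini-Hochberg over all genes, unless another tool is named. Median log2 fold changes for High over Low were -1.92 for the Serpinb genes, -0.07 for the others and -0.01 for all genes. The High and Low libraries did not overlap for 18 of the 19 Serpinb genes and for 5 of the 13 others, where 52.4% of all genes show this. The difference between the clades was not itself tested.

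More Serpinb genes fell in the last step than in the earlier ones. From HiMed to High, 0 Serpinb genes rose and 9 fell by edgeR, and 1 other serpin rose and 3 fell, against 22.1% of all genes called (10.6% higher, 11.6% lower). The count of 0 stayed 0 at an unadjusted p under 0.05, with DESeq2 and with limma, and became 1 (Serpinb11) with the replicate number as a block. From MedLow to HiMed, 1 Serpinb gene rose and 2 fell while 3 others rose and 1 fell, against a background of 13.5% (7.38% higher, 6.12% lower). With the replicate block 3 Serpinb genes rose in this step. From Low to MedLow, 2 Serpinb genes rose and 1 fell and 1 other serpin rose, against 6.60% (4.08% higher, 2.52% lower). Of the other serpins 0 fell in this step, also at an unadjusted p under 0.05 and with DESeq2 and limma. Any difference among the 4 bins was called for 14 of 19 Serpinb genes and 6 of 13 others, where 41.8% of all genes were called.

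On the deposited scale of transcripts-per-million (TPM), which allows for transcript length, the balance of the family moved from the Serpinb clade to the others. From Low to High, the summed Serpinb TPM per bin was 1086 ± 92.3, 1238 ± 128, 1085 ± 224 and 662 ± 63.5. The summed TPM of the other serpins was 292 ± 26.5, 330.3 ± 13.99, 637 ± 94.9 and 913 ± 129 in the same order. Serpinb genes thus held between 76.2 and 81.5% of all Serpin TPM in the Low libraries and between 38.8 and 47.0% in the High libraries, and these ranges do not overlap. Few genes made up each sum. By mean TPM, Serpinb5 (257), Serpinb10 (254) and Serpinh1 (247) led in Low, whereas Serpine2 (346), Serpinh1 (268) and Serpina1e (264) led in High.

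**Figure D1:**
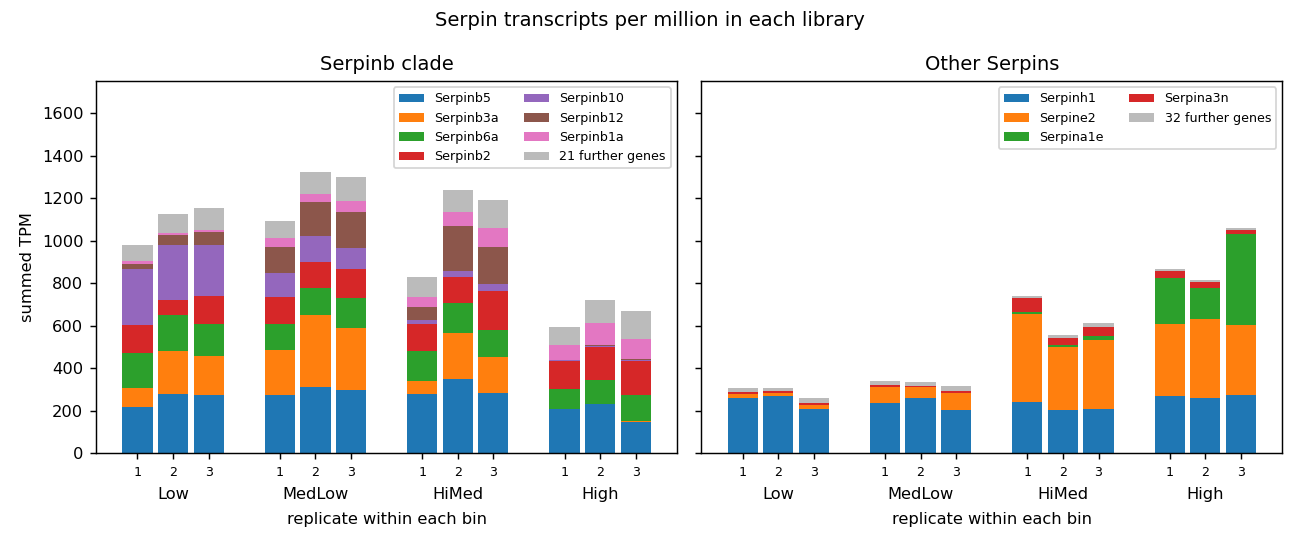
Summed TPM of the Serpinb clade (left) and of the other serpins (right) in each of the 12 libraries, stacked by gene, with replicates 1 to 3 of each bin side by side. The Serpinb sum is lowest in the 3 High libraries, and the sum of the others rises from HiMed on with Serpine2 and, in High, Serpina1e.

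The Serpinb3 genes are the mouse counterparts of the squamous cell carcinoma antigens, which inhibit cysteine cathepsins and some serine proteases. The mouse has 4 lettered copies side by side, and all fell nearly to nothing in High. Promoters are shown for Serpinb3a and Serpinb3b, which held most counts and whose windows are alike, and for Serpinb3d, whose window is not like theirs. The sequences are RefSeq promoter windows of GRCm38.p6, 250 bases before to 50 after a start site, all on the minus strand and printed 5′ to 3′. Serpinb3a is at chr1:107052254-107052553, Serpinb3b at chr1:107161065-107161364 and Serpinb3d at chr1:107083431-107083730. Capitals mark matches to TATAAA or AACAAT, the core that Sox factors bind.
Serpinb3a: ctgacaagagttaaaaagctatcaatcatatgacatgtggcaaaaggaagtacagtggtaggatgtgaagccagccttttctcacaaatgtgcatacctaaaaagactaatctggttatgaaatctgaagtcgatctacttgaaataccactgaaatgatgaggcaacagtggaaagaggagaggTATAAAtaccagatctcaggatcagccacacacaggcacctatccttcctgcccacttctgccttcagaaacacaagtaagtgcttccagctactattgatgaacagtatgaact
Serpinb3b: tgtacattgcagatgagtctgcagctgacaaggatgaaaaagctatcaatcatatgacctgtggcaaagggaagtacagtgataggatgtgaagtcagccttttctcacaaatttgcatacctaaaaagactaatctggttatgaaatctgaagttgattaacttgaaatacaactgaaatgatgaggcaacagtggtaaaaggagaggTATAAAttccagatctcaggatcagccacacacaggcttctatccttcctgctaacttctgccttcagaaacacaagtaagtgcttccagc
Serpinb3d: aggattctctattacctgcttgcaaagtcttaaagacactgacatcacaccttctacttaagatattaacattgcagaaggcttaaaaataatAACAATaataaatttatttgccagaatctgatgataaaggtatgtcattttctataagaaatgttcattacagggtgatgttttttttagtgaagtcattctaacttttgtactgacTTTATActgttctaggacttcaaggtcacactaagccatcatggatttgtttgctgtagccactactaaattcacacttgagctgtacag
The windows of Serpinb3a and Serpinb3b matched at 257 of 276 aligned bases, and those of Serpinb3b and Serpinb3c at 279 of 290. The window of Serpinb3d matched that of Serpinb3a at 155 of 267, or 46.5% with gaps counted. For Serpina1e, a serpin of another clade, the match to Serpinb3a was 160 of 259, or 46.9%. Serpinb3d and Serpinb3a were thus no more alike here than windows from different clades. TATAAA lay 65 bases before the start site in Serpinb3a, 41 in Serpinb3b and 31 in Serpinb3c, and in Serpinb3d its match was on the opposite strand. Searched on both strands, TATAAA occurs in 13.6% of all 32851 promoter windows and AACAAT in 10.7%, and among the 4 copies AACAAT was found in Serpinb3d alone. A match describes letters only.

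Serpinb3a had 88.2, 189 and 175 CPM in the Low libraries, 204, 335 and 278 in MedLow, 53.3, 202 and 151 in HiMed, and 0, 0.562 and 0.638 in High. All High libraries lay far under all others. Its log2 fold change of High over HiMed was -8.33 (SE 0.68, adjusted p = 2.8e-06) and of High over Low -8.49 (SE 0.68, adjusted p = 3.4e-07). The lower bins lay close together, at 0.86 for MedLow over Low (adjusted p = 0.356) and -1.01 for HiMed over MedLow (adjusted p = 0.162), although their libraries did not overlap. With the replicate number as a block both steps were called, at 0.92 (adjusted p = 0.0239) and -1.18 (adjusted p = 0.00369). The difference of HiMed from MedLow was also called without the low-count filter (adjusted p = 0.0290).

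Serpinb3b, at a lower level, had the same order of bin means. It had 13.4, 23.4 and 23.7 CPM in Low, 23.9, 34.3 and 27.7 in MedLow, 5.79, 18.2 and 12.8 in HiMed, and 0, 0.254 and 0.359 in High. Its log2 fold change was -5.84 from HiMed to High (SE 0.60, adjusted p = 1.8e-05) and -6.56 from Low to High (SE 0.61, adjusted p = 1.4e-06). Without High replicate 3 these were -6.44 and -7.16. The difference of HiMed from MedLow (-1.22, adjusted p = 0.0853) was called with the replicate block (adjusted p = 0.00913), and also without HiMed replicate 2 (0.0469) or High replicate 1 (0.0339), without the low-count filter (0.0117), in a fit of these bins alone (0.0458) and with limma on log2(TPM + 1) (0.0477).

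The minor copies were low. Serpinb3c had 1.60 ± 0.487 CPM in Low, 2.40 ± 0.183 in MedLow and 4.71 ± 3.64 in HiMed, and no count in High, where it was at least 235-fold lower than in HiMed (adjusted p = 3.1e-05) and at least 79.6-fold lower than in Low (adjusted p = 2.7e-05). Its HiMed libraries, at 1.71, 3.66 and 8.76 CPM, overlapped those of MedLow (0.98, adjusted p = 0.326), and without HiMed replicate 3 the bound against HiMed was 134-fold. Serpinb3d had 2.00 ± 0.798 CPM in Low and 0.817 ± 0.891 in MedLow but no count in HiMed or High. It was at least 99.7-fold lower in High than in Low (adjusted p = 0.00623). The call for MedLow to HiMed (at least 36.7-fold lower, adjusted p = 0.0348) was lost with the replicate block (adjusted p = 0.0615) and without any 1 of 8 libraries, namely each Low and HiMed library and MedLow replicates 2 and 3 (adjusted p = 0.0533 to 0.102), and with limma on TPM (0.129 to 0.251). Without MedLow replicate 2 that bound was 15.4-fold, and without HiMed replicate 3 it was 21.6-fold. These bounds set the empty bin to 3 counts over its libraries, so every bound against High is 1.58 times smaller without High replicate 2 and 1.504 times smaller without High replicate 3. Serpinb3a held 88.4% of the counts of the 4 copies, and 33.5% of its windows of 31 bases also occur in other genes. The largest share was with Gm8080 (16.2%), which is not among the 4 copies. The split between Serpinb3a and these genes thus rests on how Salmon shared out reads. The 4 copies added together, without Gm8080, gave -7.92 from HiMed to High (adjusted p = 4.1e-06).

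Serpinb12 is an epithelial inhibitor of trypsin-like proteases. It had 22.8, 45.3 and 57.8 CPM in Low, 124, 161 and 168 in MedLow, 51.9, 199.6 and 158 in HiMed, and 0.720, 2.23 and 2.37 in High. The MedLow libraries all exceeded the Low libraries, and the High libraries lay under all others. Its log2 fold change was 1.85 from Low to MedLow (SE 0.44, adjusted p = 0.0227), -0.15 from MedLow to HiMed (adjusted p = 0.892) and -6.24 from HiMed to High (SE 0.56, adjusted p = 6.2e-06). The first of these steps lost its call without Low replicate 1 (adjusted p = 0.0914), Low replicate 2 (0.0678), MedLow replicate 2 (0.0605) or MedLow replicate 3 (0.0718), and with limma on log2(TPM + 0.1) (0.0669) or on unfiltered TPM (0.107).

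Keratinocyte markers moved with these genes. The 13 suprabasal and cornifying markers summed to between 15750 and 18561 CPM in Low, 34817 and 38527 in MedLow, 17950 and 38550 in HiMed and 12826 and 17539 in High, and none of the 13 was at 0 in a bin. From HiMed to High 10 of them fell and 0 rose by edgeR (1 rose at an unadjusted p under 0.05), among them Krt1 (-5.98), and from Low to MedLow 7 rose and 0 fell (0 at an unadjusted p under 0.05). With limma on unfiltered TPM these were 6 fallen and 3 risen, and with the replicate block 2 rose from HiMed to High. HiMed replicate 1 had the lowest sum of its bin, 17950 against 38550 and 32275 CPM, and also the lowest Serpinb3a, Serpinb3b and Serpinb12 of its bin. This was not particular to these genes, since Serpinb5, Serpinb10, Serpinb1a and Serpinb11 were also lowest in that library of the bin. Serpine2 and Serpina3n were highest there. The sum in High overlapped that in Low, while Serpinb3a, Serpinb3b and Serpinb12 did not overlap between these bins. Of the sum in High, Krt6a alone made up 9282, 12256 and 8821 CPM. Sprr1a had 140, 167 and 208 CPM in Low and 1890, 2682 and 2368 in High. Krt13 had 5194, 6191 and 5690 CPM in Low and 485, 874 and 689 in High. From Low to High 4 of the 13 markers rose and 7 fell, against 20.1% and 21.2% of all genes. With limma on TPM 5 fell, and with the replicate block 8 fell. The part of these markers in the results was not tested.

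Serpinb10, a nuclear serpin first described in blood cells, was the only member called at every step, and it fell each time. It had 206, 202 and 188 CPM in Low, 91.4, 93.0 and 78.6 in MedLow, 15.2, 23.4 and 24.1 in HiMed, and 3.92, 4.42 and 4.40 in High. No bin overlapped another. The log2 fold changes were -1.18 from Low to MedLow (SE 0.14, adjusted p = 1.8e-04), -2.07 from MedLow to HiMed (SE 0.15, adjusted p = 1.8e-06) and -2.30 from HiMed to High (SE 0.15, adjusted p = 7.2e-07). Over the whole range Serpinb10 fell by 5.55 (SE 0.17, adjusted p = 1.6e-10). The summed basal keratinocyte markers were lower bin by bin, from 33691 to 34225 CPM in Low over 21943 to 23572 in MedLow and 13718 to 14204 in HiMed to 5346 to 8187 in High. The summed fibroblast markers were also lower bin by bin. From Low to High they held 591 to 632, 101 to 187, 34.5 to 39.3 and 8.37 to 17.4 CPM. Lum was at 0 in every bin. Dcn made up 587, 629 and 607 CPM of that sum in Low, but 10.4, 8.21 and 2.27 in High. Pdgfra went the other way, from 2.80, 1.78 and 3.43 CPM in Low to 3.87, 8.43 and 5.68 in High. Of 3 tested fibroblast markers, 1 rose (0 with the replicate block) and 1 fell from Low to High, against 20.1% and 21.2% of all genes. The leukocyte markers summed to 30.8 to 47.2 CPM in Low and 105 to 312 in High, where Lyz2 alone made up 99.9, 114 and 303 CPM, while H2-Aa went from 1.25 to 2.99 CPM in Low to 0 in High. The part of these lists in the fall of Serpinb10 was not tested.

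**Figure D2:**
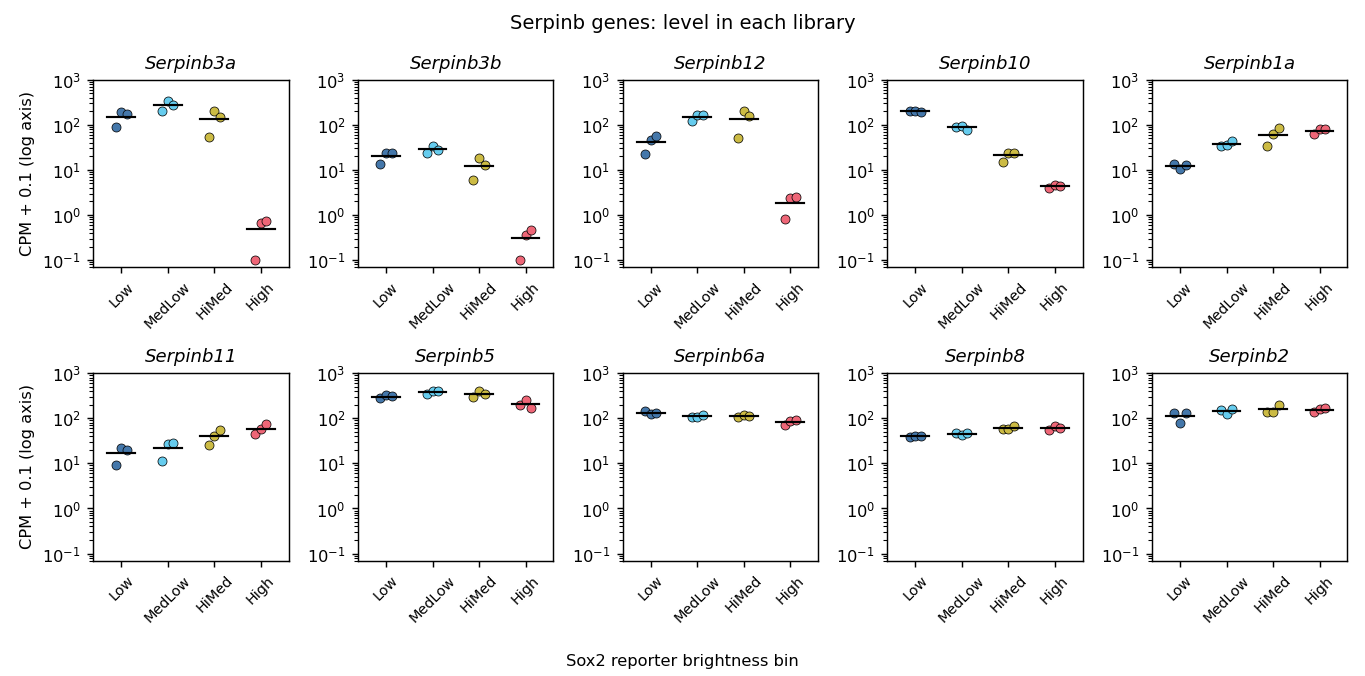
CPM plus 0.1 on a log axis for the 10 Serpinb genes given in full, with 1 point per library, 3 per bin, and a line at the bin mean. Serpinb3a, Serpinb3b and Serpinb12 drop from HiMed to High, Serpinb10 falls at each step, and Serpinb1a and Serpinb11 rise.

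Some low-level Serpinb genes were also absent from High. Serpinb13, an inhibitor of cathepsins L and K, had 0.690 ± 0.433 CPM in Low and no count in High (at least 34.5-fold lower, adjusted p = 0.00784; 22.5-fold without Low replicate 2). Its fall from HiMed (at least 15.9-fold, adjusted p = 0.0270; 10.2-fold without HiMed replicate 3) was lost with the replicate block (adjusted p = 0.0522) and without HiMed replicate 2 or 3 or any High library (0.0574 to 0.0719), and with limma on unfiltered TPM (0.351). Serpinb9e, of the clade branch that holds granzyme inhibitors, had means of 0.865 ± 0.610, 1.52 ± 0.708 and 0.612 ± 0.106 CPM in the lower bins and no count in High, at least 30.5-fold lower than in HiMed (adjusted p = 0.00120) and at least 43.2-fold lower than in Low (adjusted p = 2.99e-04; 25.9-fold without Low replicate 3). With limma on log2(TPM + 1) neither was called (adjusted p = 0.147 and 0.0529). Of the windows of Serpinb9e 46.2% are shared with other genes. A count of 0 in High allows up to 0.0200 CPM, for counting error only.

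In contrast to these, 3 Serpinb genes rose from Low to High. Serpinb1a, which inhibits the neutrophil proteases elastase and cathepsin G, had 13.3, 10.4 and 12.7 CPM in Low, 34.2, 35.2 and 43.3 in MedLow, 34.3, 62.9 and 82.9 in HiMed, and 61.2, 80.6 and 81.9 in High. All High libraries exceeded all Low libraries, with a log2 fold change of 2.62 (SE 0.26, adjusted p = 2.4e-06). The step from Low to MedLow held most of it (1.63, SE 0.25, adjusted p = 0.00132). HiMed and MedLow overlapped in HiMed replicate 1 (0.68, adjusted p = 0.0838), and this step was called without that library (0.96, adjusted p = 0.00239) and with the replicate block (0.63, adjusted p = 0.0466), without the low-count filter (0.0108) and with DESeq2 (0.0301).

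Serpinb11, an epithelial serpin with few known targets, had 8.90, 22.3 and 19.3 CPM in Low, 11.0, 26.4 and 28.6 in MedLow, 25.98, 39.7 and 55.8 in HiMed, and 44.2, 58.2 and 75.4 in High. Replicate 1 was the lowest in each bin. The whole rise was called (1.82, SE 0.39, adjusted p = 0.00206) but no single step was, with adjusted p = 0.739, adjusted p = 0.162 and adjusted p = 0.348 from the lowest pair of bins to the highest. With the replicate block the steps from MedLow to HiMed (0.92, adjusted p = 0.00224) and from HiMed to High (0.59, adjusted p = 0.0202) were called, and the first of these also without the low-count filter (0.0330).

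Serpinb8, an inhibitor of the processing protease furin, had 38.2, 40.0 and 40.3 CPM in Low, 46.2, 42.4 and 47.4 in MedLow, 59.2, 59.3 and 68.7 in HiMed, and 55.8, 66.7 and 60.8 in High. HiMed lay above MedLow without overlap (0.46, SE 0.09, adjusted p = 0.00449), a step not called by limma on TPM (adjusted p = 0.105 to 0.180), and High and HiMed overlapped (-0.03, adjusted p = 0.864). The whole rise was 0.63 (SE 0.09, adjusted p = 9.5e-05).

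Serpinb5, Serpinb6a and Serpinb2 differed by less than 1 log2 unit between Low and High. Serpinb5, or maspin, a serpin of epithelia that does not inhibit proteases, had 279.6, 324 and 309 CPM in Low, 350.5, 405 and 396 in MedLow, 297, 399.7 and 339.6 in HiMed, and 200.1, 251 and 167 in High. High lay under every other library. The log2 fold change was -0.75 from HiMed to High (SE 0.14, adjusted p = 0.00168) and -0.56 from Low (SE 0.14, adjusted p = 0.00514). The latter was not called by limma on TPM (adjusted p = 0.0556 to 0.114). MedLow over Low (0.34, adjusted p = 0.215) was called in a fit of these bins alone (adjusted p = 0.0316).

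Serpinb6a, an intracellular inhibitor of cathepsin G, had 143, 125 and 129 CPM in Low, 105, 109.5 and 118 in MedLow, 106, 116 and 111 in HiMed, and 70.5, 84.9 and 93.5 in High. It was lower in High than in HiMed (-0.42, SE 0.10, adjusted p = 0.00875) and than in Low (-0.67, SE 0.10, adjusted p = 1.0e-04), with no overlap of libraries in either case. The former was not called by limma on unfiltered TPM (adjusted p = 0.0698). Its copies Serpinb6b (8.28 ± 1.27 CPM in Low, 2.70 ± 0.558 in High) and Serpinb6c (2.69 ± 0.757 and 0.350 ± 0.308) were lower in High as well, at -1.61 (adjusted p = 0.00392) and -2.94 (adjusted p = 0.0437). The call of Serpinb6c was lost without any Low or MedLow library, HiMed replicate 3, High replicate 1 or High replicate 3 (adjusted p = 0.0521 to 0.104), and in a fit of Low and High alone (0.0660), and with limma on log2(TPM + 0.1) (0.0674) or unfiltered TPM (0.0649). Without High replicate 2 its log2 fold change was -2.35. Serpinb6b was called lower in High than in HiMed only without HiMed replicate 2 (-1.15, adjusted p = 0.0442).

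Serpinb2, an inhibitor of the plasminogen activators also known as PAI-2, had 131, 80.4 and 129 CPM in Low, 156, 123 and 163 in MedLow, 140.4, 140.1 and 200.1 in HiMed, and 136, 163 and 168 in High. The High libraries all exceeded the Low libraries, but the difference was not called (0.46, SE 0.19, adjusted p = 0.0693). It was called with the replicate block (0.48, adjusted p = 0.0175), with library size only (0.53, adjusted p = 0.0388), without the low-count filter (0.0156), with DESeq2 (0.45, adjusted p = 0.0367) and without HiMed replicate 3 (adjusted p = 0.0486). Serpinb9, the granzyme B inhibitor of cytotoxic lymphocytes, lay between 2.78 and 6.54 CPM in all 12 libraries and was not called in any comparison (High over Low -0.16, adjusted p = 0.716). Serpinb7 (1.66 ± 0.913 CPM in Low, 0.435 ± 0.381 in High) and Serpinb1b (1.75 ± 0.354 and 0.818 ± 0.311) were not called either, at adjusted p = 0.182 and adjusted p = 0.136, although limma on TPM called Serpinb1b lower in High (adjusted p = 0.00111 to 0.00287).

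Among the other serpins Serpina1e had the largest fold change from Low to High. It is a copy of alpha-1-antitrypsin, the elastase inhibitor that liver secretes into plasma. Its promoter window, at chr12:103956848-103957147, is shown beside that of its copy Serpina1b, at chr12:103738140-103738439, since the copies are alike in sequence and far apart in level. Both are RefSeq windows of GRCm38.p6 on the minus strand, 5′ to 3′, and capitals mark a match to TGANTCA, the AP-1 letters.
Serpina1e: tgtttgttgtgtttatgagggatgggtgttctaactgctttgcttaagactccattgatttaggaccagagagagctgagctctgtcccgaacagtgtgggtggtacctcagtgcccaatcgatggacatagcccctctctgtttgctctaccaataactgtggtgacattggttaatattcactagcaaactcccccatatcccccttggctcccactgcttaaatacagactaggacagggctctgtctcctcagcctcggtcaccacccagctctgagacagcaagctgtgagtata
Serpina1b: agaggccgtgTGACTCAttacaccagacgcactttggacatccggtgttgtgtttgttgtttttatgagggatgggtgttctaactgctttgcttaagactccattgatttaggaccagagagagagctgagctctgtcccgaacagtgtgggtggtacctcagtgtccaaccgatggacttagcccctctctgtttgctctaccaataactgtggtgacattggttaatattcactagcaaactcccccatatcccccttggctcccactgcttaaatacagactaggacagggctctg
Aligned with their offset, the windows were identical at 244 of 248 bases. TGANTCA, searched on both strands, occurs in 7.81% of promoter windows and lies 240 bases before the start of Serpina1b. The window of Serpina1e begins further along the shared sequence and does not cover that stretch, so the copies cannot be compared there.

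Serpina1e had 0.165, 0.0403 and 0.0259 CPM in Low, 0.0514, 0.121 and 0.605 in MedLow, 4.25, 6.32 and 14.5 in HiMed, and 167, 107 and 323 in High. Low and MedLow overlapped, and from there each bin lay above the one before it. The log2 fold change was 5.04 from MedLow to HiMed (SE 0.72, adjusted p = 4.1e-04), 4.56 from HiMed to High (SE 0.51, adjusted p = 3.0e-05) and 11.15 from Low to High (SE 0.82, adjusted p = 1.7e-07). Single libraries moved these values: the first was 6.55 without MedLow replicate 3 and 4.35 without HiMed replicate 3, the second 5.24 without HiMed replicate 3, and the last 12.49 without Low replicate 1. Serpina1e held 99.6% of the counts of the 6 Serpina1 symbols. Serpina1b held 0.412%, with 0, 0.762 and 1.67 CPM in High, and 38.8% of the windows of Serpina1e occur in Serpina1b as well, so the split between these copies rests on how Salmon shared out reads. The summed copies gave 4.56 from HiMed to High (adjusted p = 3.0e-05).

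Markers of liver plasma proteins were measured beside Serpina1e. Of 8 such markers, Alb, Fgb and Apoh had no count in any bin, and the sum of all 8 was between 0.605 and 2.88 CPM in Low and between 6.80 and 13.8 in High. Of that sum in High, Ahsg alone made up 9.68, 6.31 and 13.5 CPM. General taste bud markers rose with Serpina1e, 7 of 7 from HiMed to High, where 10.6% of all genes rose and 11.6% fell. Of 4 type I taste cell markers 3 rose and 1 fell in this step. Of 7 type II markers 0 rose and 6 fell, and of 6 type III markers 1 rose and 4 fell. With limma on TPM, 0 type I, 5 or 6 type II and 3 type III markers fell. High replicate 3 had both the highest Serpina1e (323 CPM) and the highest taste bud sum (4605 CPM, against 3290 and 2565 in replicates 1 and 2). The leukocyte gene Lyz2 was also highest there, at 303 CPM against 99.9 and 114, while Cd3e, Cd207, H2-Aa and Cd52 had no count in High. Of these, Cd3e had no count in any bin and Cd207 had counts in Low alone. The part of these markers in the result was not tested.

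Serpine2, also called protease nexin-1, is secreted and inhibits thrombin and the plasminogen activator urokinase. It had 19.8, 19.5 and 23.7 CPM in Low, 102, 74.9 and 99.2 in MedLow, 469, 358 and 382 in HiMed, and 374, 407 and 336 in High. It rose by the same 2.13 on the log2 scale in each of the lower steps (SE 0.14 in both, adjusted p = 1.9e-06 and adjusted p = 1.1e-06) and was not called from HiMed to High, where the libraries overlapped (-0.11, SE 0.13, adjusted p = 0.605). The whole rise was 4.15 (SE 0.15, adjusted p = 5.4e-10). Serpine2 made up between 52.7 and 56.2% of the TPM of all other serpins in HiMed, against between 4.93 and 6.81% in Low.

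Serpina3n, a relative of antichymotrypsin that inhibits granzyme B and cathepsin G, was the only tested member highest in a middle bin by test. It had 12.3, 9.80 and 13.6 CPM in Low, 14.2, 6.56 and 11.6 in MedLow, 75.9, 40.0 and 54.5 in HiMed, and 37.1, 29.9 and 18.7 in High. All HiMed libraries exceeded every other library. The rise from MedLow was 2.40 (SE 0.31, adjusted p = 2.1e-04). The fall to High was smaller (-0.99, SE 0.30, adjusted p = 0.0293) and its call was lost without HiMed replicate 1 (adjusted p = 0.119), HiMed replicate 3 (0.0595), High replicate 2 (0.0570) or High replicate 3 (0.112). With limma on log2 TPM it was not called either (adjusted p = 0.0759 at TPM + 1), so the call of a middle peak is lost in these settings. High still exceeded Low (1.26, SE 0.31, adjusted p = 0.00454).

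Serpinh1, known as HSP47, is a collagen chaperone of the endoplasmic reticulum and inhibits no protease. It had 356, 357 and 266 CPM in Low, 331, 344 and 271 in MedLow, 290.2, 269 and 265 in HiMed, and 314, 307 and 312 in High. The High libraries lay within the range of the Low libraries, and the difference was not called (-0.07, SE 0.11, adjusted p = 0.677), nor was any step. Serpinh1 made up between 80.04 and 87.6% of the TPM of the other serpins in Low and between 25.98 and 31.99% in High.

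**Figure D3:**
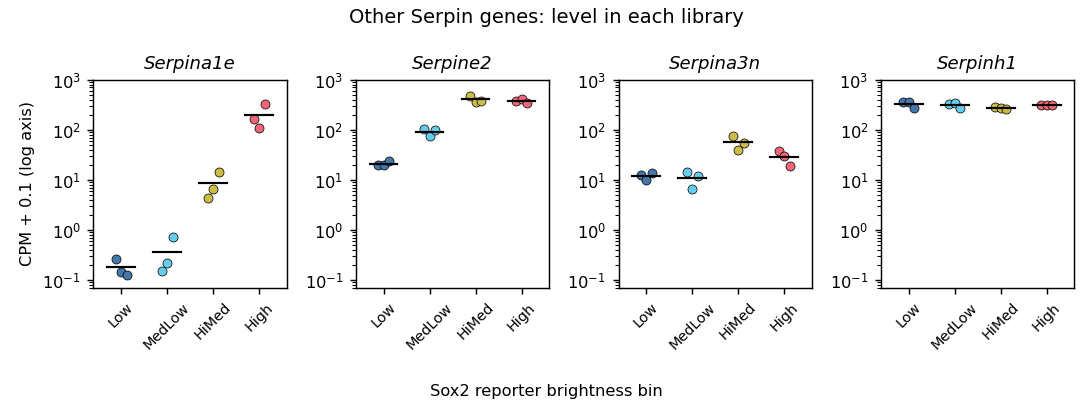
CPM plus 0.1 on a log axis for 4 serpins outside the Serpinb clade that reached a mean of 10 CPM in a bin, with 1 point per library and a line at the bin mean. Serpina1e and Serpine2 are higher in HiMed and High than in Low, Serpina3n is highest in HiMed and Serpinh1 varies little.

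The remaining other serpins were low. Serpina9, known from germinal centre B cells, had bin means of 4.32 ± 0.439, 8.65 ± 1.92, 5.77 ± 3.66 and 0.339 ± 0.440 CPM from Low to High, and was lower in High than in HiMed (-4.06, SE 0.84, adjusted p = 0.00327) and than in Low (-3.65, SE 0.83, adjusted p = 0.00283), the latter not by limma on log2(TPM + 1) (adjusted p = 0.0774) and neither by limma on unfiltered TPM (0.0889 and 0.166). Without High replicate 3 these were -5.85 and -5.44. Its step from Low to MedLow (adjusted p = 0.579) was called in a fit of these bins alone (adjusted p = 0.0206). The neuronal serpin Serpini1 had 3.09 ± 2.11 CPM in HiMed and 0.469 ± 0.213 in MedLow without overlap. It was called for a difference among the 4 bins (adjusted p = 0.0411) but not for that step (2.71, adjusted p = 0.0601). DESeq2 called it (adjusted p = 0.00913), as did edgeR on these bins alone (0.0265) and without Low replicate 1, HiMed replicate 2 or High replicate 3 (adjusted p = 0.0331 to 0.0457). The complement regulator Serping1, the antithrombin gene Serpinc1 and the angiogenesis inhibitor gene Serpinf1 stayed under 1.3 CPM in every library and were not called, except that Serpinf1 was called lower in High than in Low without High replicate 2 (adjusted p = 0.0165). In High, Serpinc1 had 0.174 ± 0.114 CPM where Serpina1e, also of a liver plasma protein, had 199 ± 111.

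Neighbouring genes were compared by place. RefSeq gene order was counted over serpin genes only. In it, 12 Serpinb genes are consecutive on chromosome 1 and 16 on chromosome 13, and 24 of the other serpins lie on chromosome 12. On chromosome 1 the run Serpinb5, Serpinb12, Serpinb13, Serpinb3a, Serpinb3d, Serpinb3b and Serpinb3c was lower in High than in Low throughout. Next in order after this run, Serpinb11 rose, Serpinb7 and Serpinb2 were not called, Serpinb10 fell, and Serpinb8, the last, rose. On chromosome 12 Serpina1e rose while Serpina9, beyond Serpina11, fell, and the Serpina1 copies other than Serpina1e and Serpina1b had at most 0.0900 CPM in any library. Whether genes of a cluster move together more than others was not tested.

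**Figure D4:**
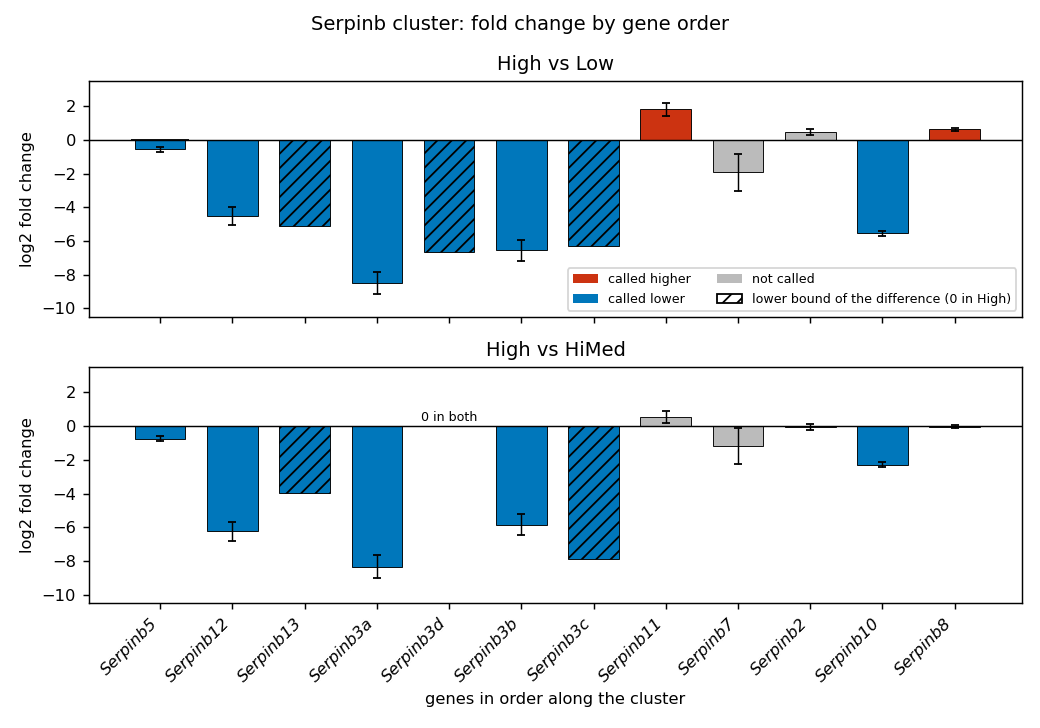
Log2 fold change of High over Low (top) and High over HiMed (bottom) for the 12 Serpinb genes of chromosome 1 in gene order, with error bars of 1 standard error and colours for calls. Hatched bars are bounds for genes with no count in High, and Serpinb3d has no count in either bin of the lower plot. The 7 genes from Serpinb5 to Serpinb3c are lower in High than in Low, whereas Serpinb11 and Serpinb8 are higher.

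Proteases that serpins can meet were listed beside them. Of 27 tested kallikreins and other secreted or membrane-anchored serine proteases of epithelium, 15 rose and 6 fell from Low to High. Their median log2 fold change was 1.30, where 20.1% of all genes rose and 21.2% fell. With limma on TPM 4 fell, and with the replicate block 16 rose. Prss23, a secreted protease, rose from 3.603 to 229 CPM (5.98, adjusted p = 1.3e-08), and Tmprss11g, a membrane-anchored serine protease, from 3.57 to 204 CPM (5.82, adjusted p = 1.04e-08). Klk1, the tissue kallikrein, was low and fell from 1.19 to 0.0150 CPM (-6.12, adjusted p = 0.0281). Klk5, a kallikrein of cornified epithelium, fell from 0.562 CPM to no count (at least 28.1-fold lower, adjusted p = 0.0309). The Low libraries of Klk5 had 0, 0.726 and 0.960 CPM, so Low and High overlapped. From Low to MedLow 12 rose (7 with limma on unfiltered TPM, 14 with DESeq2 and with the replicate block) and 0 fell by edgeR (1 at an unadjusted p under 0.05, and 1 with DESeq2), and from HiMed to High 6 rose and 5 fell. Markers of the von Ebner glands, which open beside the papilla, summed to between 775 and 2477 CPM in Low and between 13.9 and 145 in High. Lcn11 was at 0 in every bin. Aqp5 went the other way, from 0.918, 2.06 and 1.76 CPM in Low to 13.4, 23.7 and 30.1 in High. Of 6 tested von Ebner markers 1 rose and 5 fell from Low to High (2 fell with DESeq2, 4 or 5 with limma on TPM), against 20.1% and 21.2% of all genes. The part of these markers in the fall of Klk1 was not tested.

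Of the plasminogen and coagulation genes, 4 of 12 were higher in High than in Low and 4 lower, against 20.1% and 21.2% of all genes, with 5 lower by DESeq2 and 6 lower with the replicate block. Plau, which encodes the plasminogen activator urokinase, a target of Serpine2, fell from 132 to 55.3 CPM (-1.25, adjusted p = 4.3e-05). Plat, which encodes the tissue-type activator and was chosen after its values were seen, rose from 14.2 to 32.1 CPM (1.18, adjusted p = 0.00209). The thrombin receptor gene F2r rose from 50.4 to 182 CPM (1.85, adjusted p = 2.4e-07). Procr, encoding the protein C receptor, fell from 109 to 18.3 CPM (-2.57, adjusted p = 7.9e-09), and Lrp1, encoding a receptor that takes up serpin complexes, from 486 to 170.4 CPM (-1.51, adjusted p = 6.9e-07).

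Among 14 tested cathepsins, granule proteases and caspases, 6 rose and 5 fell from Low to High, against 20.1% and 21.2% of all genes. With limma on TPM 2 or 3 of them fell. Ctsl, encoding the lysosomal cathepsin L, rose from 63.5 to 314 CPM (2.31, adjusted p = 2.1e-09), and Gzma, a granzyme of lymphocytes, from 0.689 to 37.9 CPM (5.73, adjusted p = 1.3e-06). The keratinocyte caspase gene Casp14 fell from 10.8 to 0.167 CPM (-5.95, adjusted p = 2.1e-05). Ctss, encoding a cathepsin of antigen-presenting cells, fell from 1.11 CPM to no count (at least 55.5-fold lower, adjusted p = 0.0179). In High 4 of the 8 leukocyte markers had no count (Cd3e, Cd207, H2-Aa and Cd52), and Lyz2 made up 99.9 to 303 of the summed 105 to 312 CPM. Cd3e had no count in any bin, and Cd207 had counts in Low alone. The part of these markers in the rise of Gzma was not tested.

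Of 20 tested inhibitors of other families, 6 rose and 5 fell from Low to High, with a median of -0.22, and these counts lie near the 20.1% and 21.2% of all genes. Spink5, which restrains kallikreins in cornified epithelia, rose from 77.5 to 468 CPM (2.60, adjusted p = 3.7e-06). The secretory leukocyte protease inhibitor gene Slpi fell from 46.4 to 0.560 CPM (-6.34, adjusted p = 1.5e-05), with 81.4 CPM in MedLow and 51.3 in HiMed. Papln, a matrix protein with inhibitor domains, fell from 56.2 to 6.09 CPM (-3.20, adjusted p = 6.8e-10), and Wfdc2, a whey acidic protein family member, from 94.6 to 21.5 CPM (-2.14, adjusted p = 2.0e-07).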

How the data were processed

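RNA-seq of 12 libraries was used, grouped by the GFP bin in the labels, with 3 replicates per bin. Per the submitters' processing notes, the authors used Salmon 1.4.0 and DESeq2 1.28.1 with mouse build mm39. No annotation or rule for summing transcripts is given in the sources used here. Expected counts, as deposited, are estimated counts per symbol, of which 8.24 to 13.0% per library were not whole. The deposited TPM values, made by the authors, were used to compare levels between genes.

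Expected counts were rounded and tested with edgeR 4.0.16 (R 4.3.3), using filterByExpr with a minimum count of 10, TMM scaling and a quasi-likelihood fit of bin means over all libraries. Benjamini-Hochberg adjustment covered 17432 genes, and the 35238 symbols left out held 0.0340% of counts. CPM used TMM scaling, and each SE is the value the F statistic implies. The common biological coefficient of variation was 0.366. Floors of 3 counts per bin were 0.0284, 0.0254, 0.0223 and 0.0200 CPM from Low to High, for counting error only. The labels give a bin and a replicate number and name no pool. The main fit took all libraries as independent, so its p-values measure spread between the libraries of a bin. Mice shared between bins would be allowed for in the fit with the replicate block only.

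The members and lists were chosen with earlier results of these data known. Values of every library are given for up to 10 members per clade with the largest range of bin means among those reaching 10 CPM, and up to 4 called genes of each list are named by size of change. The values of 1 member are not reported here, though the counts over members include it.

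Replicate numbers recur in every bin, and the series describes a replicate as a pool of mice, so numbers were taken to pair libraries, though the labels do not say this outright. Over 9650 genes, deviations from bin means correlated at 0.0794 to 0.353 in 18 same-number pairs, 17 above 0.1, and at -0.283 to 0.0378 in the other 36. Deviations within a bin sum to 0, so the other pairs are not independent of the same-number pairs. Alternatives were other scalings, filters, DESeq2 1.42.0, limma 3.58.1 on log2 TPM, a replicate block, summed copies, fits of the compared bins alone and leaving out each library. The fit was tested on simulated data. Promoters came from RefSeq for 54 of 64 members, and gene order from RefSeq with no coordinates used, as its build differs from mm39.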

Additional observations from a re-analysis of the deposited data

How the results depend on the processing

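Of 44 called member comparisons, 30 were called in every alternative that gave a value, and 13 uncalled ones were called in at least 1. No member reversed direction while called. The serpins called from HiMed to High numbered 13, and 7 with limma on log2(TPM + 1) unfiltered. From MedLow to HiMed they numbered 7, and 11 with no filter on low counts, 4 with TPM + 0.1 and 4 with TPM unfiltered. With the replicate block, 1 Serpinb gene rose from HiMed to High and 3 rose from MedLow to HiMed. Among the serpins it changed no calls beyond those given beside the results, and among other inhibitors 6 in place of 4 rose from HiMed to High. With no filter on low counts 3 Serpinb genes rose and 4 fell from MedLow to HiMed, and with DESeq2 2 rose. With limma on TPM + 1, TPM + 0.1 and TPM unfiltered, 0 Serpinb genes rose and 0 others fell in that step, and 1 Serpinb gene fell in the last 2 of these fits. With TPM + 1 and TPM unfiltered 1 other serpin fell from Low to High, and from HiMed to High 1 and 0 fell. From Low to MedLow 1 Serpinb gene rose with TPM + 0.1 or unfiltered, and 2 others rose in the fit of the bins alone. Summing the copies leaves fewer genes, and then 6 Serpinb genes fell from Low to High, 1 fell from MedLow to HiMed and 9 differed among the bins. Leaving out 1 library gave 1 to 2 other serpins higher in High than in HiMed (2 without High replicate 1). From MedLow to HiMed it gave 1 to 2 Serpinb genes higher (2 without HiMed replicate 1), 1 to 3 lower (1 without any Low library, MedLow replicates 2 or 3, or HiMed replicates 1 or 3) and 0 to 1 others lower (0 without MedLow replicate 1). From Low to MedLow it gave 1 to 2 Serpinb genes higher (1 without Low replicates 1 or 2 or MedLow replicates 2 or 3). Members at a few counts per library, such as Serpinb13, Serpinb3d and Serpinb6c, are at the limit of this depth.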
